A study of Homo sapiens with 4 samples.

Results

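Metallothioneins of classes 1 and 2 were examined after overexpression of BTG2 in MOLM13, a cell line from a human acute myeloid leukaemia. Genes were taken by symbol (MT1 or MT2 followed by a single letter), which gave 5 of the 11597 genes in the authors' deposited table: MT2A, MT1E, MT1F, MT1G and MT1X. Membership was set by symbol, but the family itself was chosen by its fold changes of BTG2 over empty vector in this same table. Those fold changes and their p-values are therefore given as descriptions. Where they were adjusted again or recentred, the same values were reused, and this adds no support.

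The BTG2 group (genotype BTG2 OE) held 2 libraries from cells transduced with a lentivirus carrying the BTG2 cDNA, and the empty vector group (genotype WT) held 2 libraries from cells given the vector without it. Both vectors carried an EF1α promoter, the fluorescent marker ZsGreen and puromycin resistance, and all cells went through the same spin infection and were collected 3 days later. The labels mention no selection or sorting, and they do not say whether the libraries of a group came from separate cultures, so the deposited p-values may measure technical spread alone. The design text gives the role of BTG2 in mRNA stability as the question. BTG2 is an antiproliferative adaptor that brings the CCR4-NOT deadenylase to mRNA. The authors' deposited table gives it a log2 fold change of 5.01 (standard error, SE, 0.09), in which cDNA reads are counted together with those of the cell's own gene. Of 12 markers of myeloid leukaemia 11 were among the genes analysed, and of 20 markers of T, B, erythroid, epithelial and stromal cells 3 were (PAX5, KRT8 and KRT18). At an adjusted p under 0.05 in the authors' deposited table, 3 of the 11 myeloid markers were lower and 2 higher with BTG2, beside 4.47% lower and 3.64% higher of all genes. By the authors' deposited table MPO, the myeloperoxidase of granules, had the largest fall among them, at a log2 fold change of -1.14 (SE 0.15, adjusted p = 7.83e-12). PAX5, a B cell transcription factor and the only B cell marker measured, carried a fitted value of -9.28 (SE 1.47, adjusted p = 2.38e-08) at a mean normalized count of 53.1 in the authors' deposited table, a size that does not measure a fold. KRT8 (-0.48) and KRT18 (-0.24) did not pass. The part of such markers in the metallothionein values was not tested.

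Metallothioneins are small cytosolic proteins that hold zinc and copper, and toxic metals such as cadmium, through clusters of cysteine thiolates. They buffer free zinc, and they are among the transcripts most readily induced by metals, through the zinc-sensing transcription factor MTF1 at metal response elements, as well as by glucocorticoids and oxidative stress. MT2A and the MT1 genes are used in many tissues, whereas MT3 is known from the brain and MT4 from squamous epithelium. Human MT genes lie in a cluster on the long arm of chromosome 16.

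The coding sequences show the spacing of cysteines that defines the family and how alike its members are. MT2A stands for class 2, MT1X had the largest fall of the 5 and MT1E the smallest. Sequences are from GENCODE release 29 on GRCh38 (hg38), start to stop codon, 5′ to 3′, with the TGC and TGT codons, which code for cysteine, in capitals.
MT2A: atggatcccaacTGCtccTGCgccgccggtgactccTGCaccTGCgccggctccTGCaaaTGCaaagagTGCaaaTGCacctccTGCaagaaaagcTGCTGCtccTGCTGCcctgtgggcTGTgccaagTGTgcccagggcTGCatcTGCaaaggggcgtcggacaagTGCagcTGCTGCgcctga
MT1X: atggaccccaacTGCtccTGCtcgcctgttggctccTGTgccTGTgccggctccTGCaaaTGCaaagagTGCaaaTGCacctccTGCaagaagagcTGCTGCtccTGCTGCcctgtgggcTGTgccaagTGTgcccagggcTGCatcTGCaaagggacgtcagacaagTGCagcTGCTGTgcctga
MT1E: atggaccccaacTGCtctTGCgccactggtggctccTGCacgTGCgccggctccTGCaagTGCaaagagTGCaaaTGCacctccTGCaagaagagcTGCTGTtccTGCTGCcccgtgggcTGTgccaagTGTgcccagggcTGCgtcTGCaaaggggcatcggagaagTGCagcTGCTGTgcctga
Each of the 5 coding sequences had 186 bases, 61 codons before the stop and 20 cysteine codons, or 32.8% of the codons. Their choice between the synonymous codons differed, with 18 TGC and 2 TGT codons in MT2A, against 15 and 5 in MT1X. Over the 10 pairs, identity of the coding sequences lay between 88.7% (MT1F and MT1X) and 95.2% (MT2A and MT1G), with a median of 92.2%.

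Whole transcripts were then searched for stretches in common. No window of 150 bases, the read length in the labels, was identical to a transcript of another gene in the transcripts of MT2A (637 windows), MT1E (555), MT1F (541) and MT1G (257). In MT1X, 17 of 301 windows (5.65%) were, and all matched AC026461.1, a non-coding transcript on the same strand that overlaps MT1X. This search covered 206694 transcripts and exact matches alone. The longest stretch that any 2 of these 5 transcripts shared had 96 bases, in MT1G and MT1X, so reads shorter than that, or reads with errors, could be assigned to the wrong gene. MT1P3, a processed pseudogene, shared 79 bases with MT1E, and MT2P1 shared 68 with MT2A. The search does not show how reads were assigned, and the coding sequences of the members were 88.7% to 95.2% identical. How far the levels of single members, and the differences between their falls, reflect reads of another gene was not tested.

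The promoter table of RefSeq (GRCh38.p14) held 2 of the 5 genes, MT2A and MT1X. The 250 bases before their RefSeq starts are shown because metal response elements are the best known control sites of these genes. Capitals mark matches to the core of that element, searched as TGCACNC and TGCGCNC on both strands.
MT2A, chr16:56608334-56608583, plus strand: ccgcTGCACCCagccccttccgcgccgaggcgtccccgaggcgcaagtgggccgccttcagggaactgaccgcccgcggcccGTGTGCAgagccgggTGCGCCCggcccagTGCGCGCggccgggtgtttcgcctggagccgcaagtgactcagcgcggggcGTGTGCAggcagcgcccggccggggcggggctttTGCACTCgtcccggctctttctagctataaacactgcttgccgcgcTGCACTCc
MT1X, chr16:56682220-56682469, plus strand: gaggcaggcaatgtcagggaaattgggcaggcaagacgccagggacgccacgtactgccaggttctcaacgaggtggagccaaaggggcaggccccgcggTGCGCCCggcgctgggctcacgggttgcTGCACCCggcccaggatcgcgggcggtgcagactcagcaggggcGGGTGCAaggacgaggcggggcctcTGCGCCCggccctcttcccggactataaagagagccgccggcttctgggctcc
The MT2A window held 7 matches, of which 2 were on the minus strand. The first began 246 bases before the start and the last 8 bases before it. The MT1X window held 4 matches, beginning 150, 122, 78 and 53 bases before the start, with that at 78 on the minus strand. No 2 matches overlapped. Among 35116 promoter windows of the same length, 24.8% held at least 1 match, 1.58% held 3 or more, 0.370% held 4 or more and 0.0313% held 7 or more. GENCODE starts the MT2A gene 385 bases and the MT1X gene 46 bases upstream of the RefSeq starts used here. The whole MT2A window and the end of the MT1X window therefore lie inside the genes as GENCODE draws them. A match is a string of letters, and MTF1 binding was not measured.

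All 5 metallothionein transcripts were lower with BTG2. The authors' deposited table gives log2 fold changes from -0.80 for MT1X to -0.38 for MT1E, with a median of -0.65, beside a median of 0.00026 over all listed genes. Each of the 5 had an adjusted p under 0.05 there, and so did 8.11% of all genes, with 4.47% lower and 3.64% higher. Among genes whose mean count reached the median, adjusted again over those genes alone, the shares were 8.98% lower and 6.91% higher, and all 5 members were again among the lower ones. Past an absolute log2 fold change of 1 as well, 1.03% of all genes and 0 of the 5 were called. Since the family was chosen by this contrast, nothing is read from these differences. The RNA came from bulk cultures, where fewer cells expressing a gene and less RNA per cell cannot be told apart.

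MT2A, the sole class 2 gene, lies on chromosome 16 from 56608199 to 56609497, plus strand, and is the first of the 5 along the cluster. In the authors' deposited table MT2A (ENSG00000125148.7) had a mean normalized count of 846 over the libraries and fell by 0.65 on the log2 scale (SE 0.08, adjusted p = 1.57e-12). That corresponds to a level 36.1% lower, with a 95% interval of 28.4% to 42.9% from the deposited SE. Values per library were not analysed here, but the mean and the fold change together imply group means of 660 with BTG2 and 1032 with the empty vector. Such implied means assume that the fold change is the ratio of the group means and that the mean weights the 4 libraries equally.

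MT1X (ENSG00000187193.9), the last of the 5 along the cluster (56682424 to 56684196, plus strand), had both the highest mean count and the largest fall. The authors' deposited table gives it a mean normalized count of 1321 and a log2 fold change of -0.80 (SE 0.08, adjusted p = 6.5e-24). The implied means were 962 with BTG2 and 1680 with the empty vector, a level 42.7% lower (95% interval 36.5% to 48.3%). By p-value MT1X ranked 27 among the 11597 genes, and by fold change 267 genes had a lower value.

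MT1G (ENSG00000125144.14), at 56666731 to 56668065, is the only one of the 5 on the minus strand. In the authors' deposited table MT1G had a mean normalized count of 938 and a log2 fold change of -0.68 (SE 0.08, adjusted p = 1.9e-15). Its implied means were 721 with BTG2 and 1155 with the empty vector, or 37.6% lower (95% interval 30.5% to 43.9%). The difference from MT2A, which is read from the opposite strand, was -0.03 (SE 0.11 if independent).

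MT1F (ENSG00000198417.7), at 56657694 to 56660698, plus strand, was the least counted and least precisely measured member. The authors' deposited table lists MT1F with a mean normalized count of 530 and a log2 fold change of -0.59 (SE 0.12, adjusted p = 2.37e-05). Implied means were 423 with BTG2 and 637 with the empty vector, or 33.5% lower (95% interval 22.0% to 43.3%).

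MT1E (ENSG00000169715.15), at 56625475 to 56627112, plus strand, was the second most counted member and fell least. Its row in the authors' deposited table holds a mean normalized count of 1058 and a log2 fold change of -0.38 (SE 0.09, adjusted p = 0.000685). For MT1E the implied means were 920 with BTG2 and 1197 with the empty vector, or 23.1% lower (95% interval 13.2% to 31.9%). The upper end of that interval stayed under the lower end for MT1X.

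**Figure D1:**
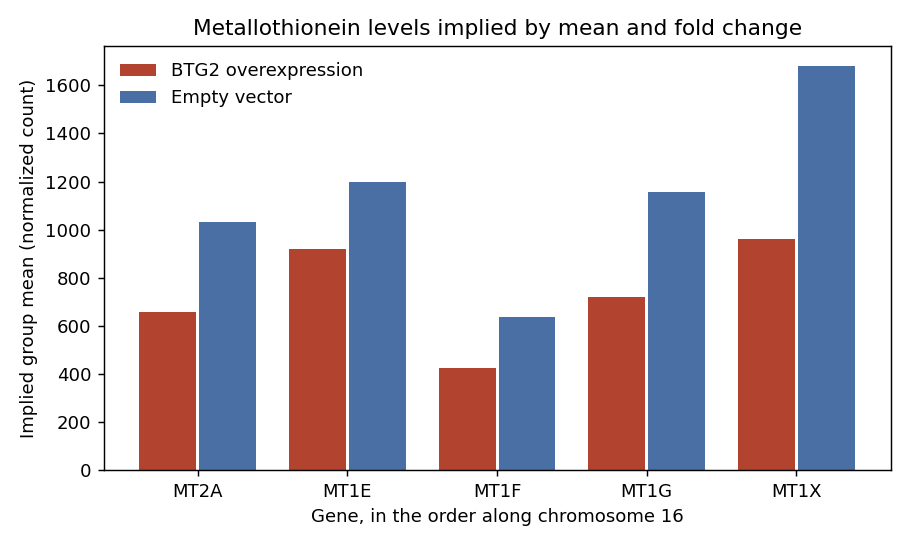
Group means in normalized counts (vertical axis) implied by the authors' mean and fold change, for the 5 metallothionein genes in their order along chromosome 16, BTG2 bars left of empty vector bars. No error bars can be drawn because values per library were not analysed here. In each pair the BTG2 bar is the lower, from 423 against 637 in MT1F to 962 against 1680 in MT1X.

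Added over the 5 genes, the implied means came to 3687 with BTG2 and 5701 with the empty vector, or 35.3% lower. MT1X made up 26.1% of that sum with BTG2 and 29.5% with the empty vector, and MT1E 25.0% with BTG2 and 21.0% with the empty vector. Between genes, levels depend on transcript length. Per kb of the annotated transcript the mean counts were 2936 for MT1X, 2310 for MT1G, 1504 for MT1E, 1077 for MT2A and 768 for MT1F. That order changes with the transcript chosen, since GENCODE gives MT2A, MT1E and MT1F 5′ UTRs of 457, 377 and 365 bases, whereas MT1G and MT1X have 72 and 117. Without dividing by length, which would suit a count of whole molecules, MT1E came before MT1G.

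The 5 falls had a standard deviation of 0.16 on the log2 scale, larger than the SEs of single genes, which ran from 0.08 to 0.12. In the order MT1X, MT1G, MT2A, MT1F, MT1E, the 95% intervals of the 4 pairs of neighbours all overlapped, as did those of 9 of all 10 pairs. The exception was MT1X against MT1E, with a difference in log2 fold change of -0.43 (SE 0.12 if the errors of the 2 genes are independent, which the shared libraries make uncertain). The differences of MT1G and MT2A from MT1E were -0.30 (SE 0.12) and -0.27 (SE 0.12), and the intervals overlapped in both pairs. Of the pairs without MT1E, those with MT1X, such as MT1X and MT2A at -0.16 (SE 0.11), also differed by more than the SE. The pairs among MT1G, MT2A and MT1F differed by less than the SE, such as MT1G and MT1F at -0.09 (SE 0.14). Differences between members were not tested. MT1X had fallen by 0.12 more than MT1G on that scale (SE 0.11), and MT1F by 0.21 more than MT1E (SE 0.15).

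**Figure D2:**
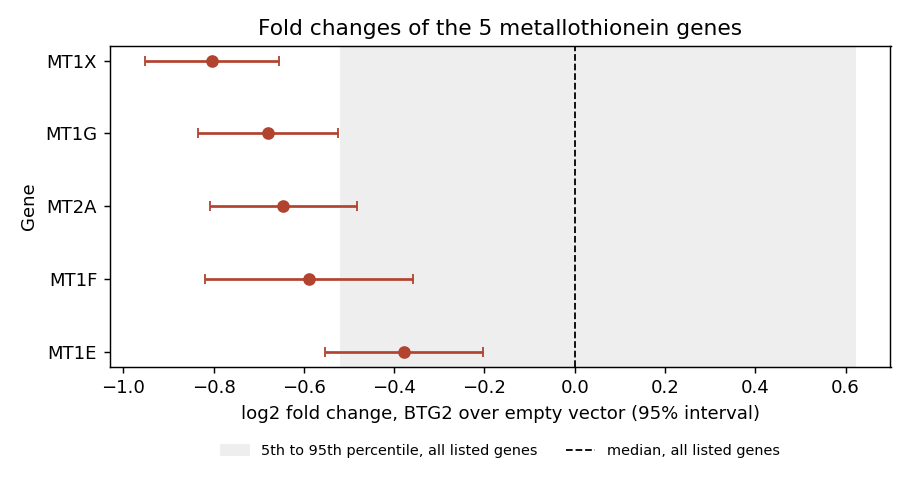
Log2 fold change of BTG2 over empty vector (horizontal axis) for each metallothionein gene, with the 95% interval from the deposited SE; the grey band runs from the 5th to the 95th percentile of all listed genes, -0.52 to 0.62, and the dashed line is their median. All 5 intervals lie below 0, and the points of 4 genes lie left of the band, with MT1E at -0.38 inside it.

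The precision of these values was that of other genes of like abundance. The members' mean counts were above those of 81.7% (MT1F) to 93.0% (MT1X) of listed genes, where the median was 151. Among the 1313 other genes with mean counts between those of MT1F and MT1X, the SE had a median of 0.09, and its 5th and 95th percentiles were 0.07 and 0.11. The SE of MT1F, 0.12, lay just above that range and those of the other members lay inside it. The median log2 fold change of those 1313 genes was -0.06.

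**Figure D3:**
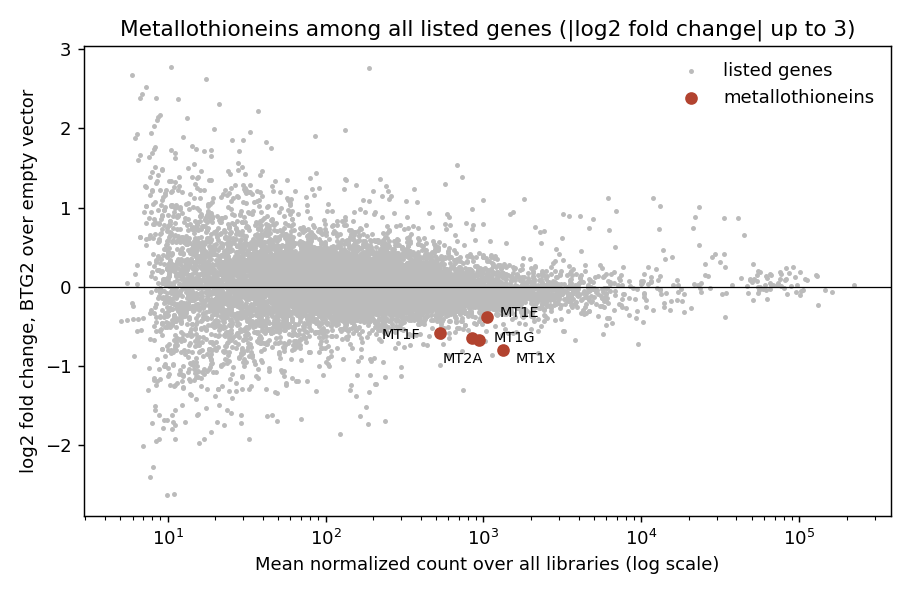
Log2 fold change of BTG2 over empty vector (vertical axis) against the mean normalized count over all libraries (horizontal log axis) for the listed genes, leaving out those beyond 3 in absolute log2 fold change. The 5 metallothioneins (large points) have mean counts from 530 to 1321 and sit in the lower part of the cloud at that abundance.

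The members also share a very short transcript. Their annotated transcripts ran to 786 bases (MT2A), 704 (MT1E), 690 (MT1F), 450 (MT1X) and 406 (MT1G), each in 3 exons, beside a median of 3088 bases over 10484 listed coding genes. At most 2.47% of those genes had a shorter transcript than any given member. In the tenth of coding genes with the shortest transcripts, up to 1298 bases and including the 5, the median log2 fold change was -0.07, and 10.7% of 1050 genes were lower and 5.05% higher at the authors' adjusted p under 0.05. Other coding genes had a median of -0.0049. Of the 779 short genes whose mean count also reached the median, 13.1% were lower and 5.91% higher. The part of transcript length in the members' falls was not tested. The 3′ UTRs had 139 to 148 bases in the 5 genes and held 0 ATTTA motifs, the core of the AU-rich elements that mark unstable mRNAs.

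The cluster was set against its surroundings to see how far the falls extended along the chromosome. The 5 genes span 76.0 kb, and within 500 kb on either side 8 other genes were described. Of these, 1 was lower and 0 higher at the adjusted p under 0.05, beside 4.47% lower and 3.64% higher of all genes. A set of 8 genes is too small to be compared with those shares. The nearest on each side did not pass the test. In the authors' deposited table BBS2, a ciliary protein gene 87.9 kb before MT2A, stood at -0.10 (SE 0.19), and NUP93, a nuclear pore subunit gene 45.9 kb beyond MT1X, stood at 0.30 (SE 0.13, adjusted p = 0.170). The gene that passed was HERPUD1, 248 kb beyond MT1X, which codes for a membrane protein of endoplasmic reticulum-associated degradation. At a mean normalized count of 596, the authors' deposited table has HERPUD1 lower by a log2 fold change of -0.87 (SE 0.09, adjusted p = 9.94e-18). NUDT21, OGFOD1, NLRC5, CPNE2 and FAM192A had log2 fold changes between -0.18 and 0.18. Release 29 places 11 further MT genes and pseudogenes in or next to the cluster, from MT4 to MT1IP. None of these was among the 11597 genes analysed, so nothing is known here of their levels.

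**Figure D4:**
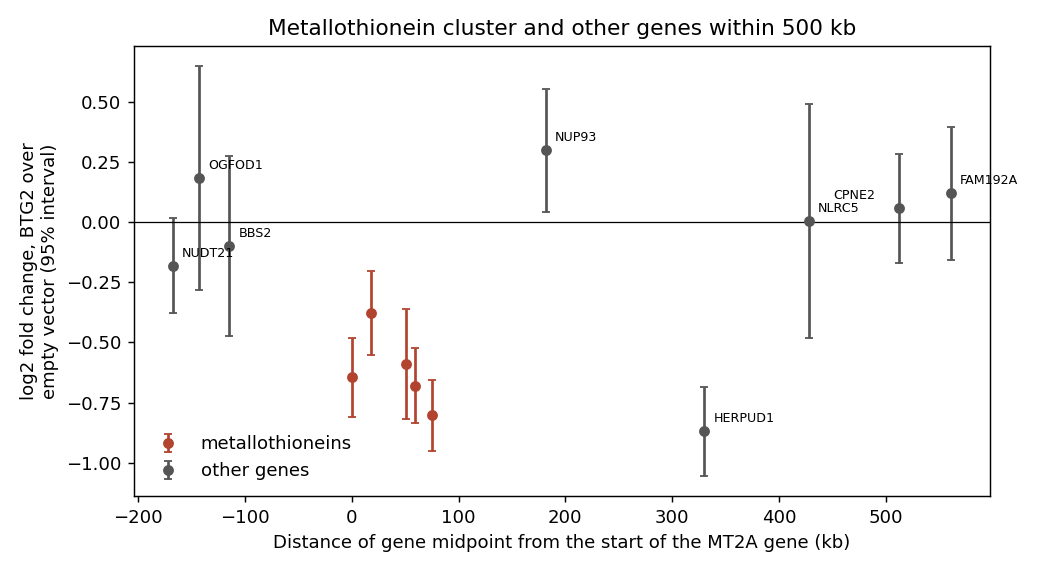
Log2 fold change of BTG2 over empty vector with its 95% interval (vertical axis) against the distance of each gene's midpoint from the start of the MT2A gene in kb (horizontal axis), for the metallothioneins and 8 other genes within 500 kb. The 5 metallothioneins lie between -0.80 and -0.38, the intervals of 6 neighbours include 0, that of NUP93 lies above it and that of HERPUD1 below it.

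The regulator and the other metal-handling genes are given next, by list. For the counts in each list, the shares over all genes were 4.47% lower and 3.64% higher at an adjusted p under 0.05. MTF1, the transcription factor that induces metallothioneins, was listed in the authors' deposited table with a mean normalized count of 61.1 and a log2 fold change of 0.02 (SE 0.28, adjusted p = 0.991), for a 95% interval of -0.53 to 0.58. Of the 10 zinc exporters of the SLC30 family 5 were measured and 0 were called, with a median of -0.03. SLC30A1, the plasma membrane exporter that MTF1 also induces, stood at -0.36 (SE 0.19, adjusted p = 0.301), SLC30A5 at -0.16, SLC30A9 at -0.03 and SLC30A7 at 0.03 in the authors' deposited table.

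Zinc importers of the SLC39 family were measured in 11 of 14 cases, of which 2 fell and 0 rose, with a median of -0.08. By the authors' deposited table SLC39A6 fell by 0.51 on the log2 scale (SE 0.15, adjusted p = 0.0101) and SLC39A3 by 0.32 (SE 0.10, adjusted p = 0.0293). SLC39A14, at -0.32 (adjusted p = 0.215), and SLC39A9, at 0.31 (adjusted p = 0.387), did not pass in the authors' deposited table.

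Of 14 measured copper-handling genes 1 fell and 0 rose, with a median of -0.04. By the authors' deposited table it was SOD1, the copper and zinc superoxide dismutase, which fell by 0.35 on the log2 scale (SE 0.06, adjusted p = 7.58e-07). The copper importer SLC31A1 (-0.39), the SOD1 copper chaperone CCS (-0.32) and COMMD1 (-0.25) had adjusted p of 0.248, 0.342 and 0.377 in the authors' deposited table. Of 14 iron-handling genes 2 fell and 0 rose, with a median of -0.01. The ferritin light chain FTL fell by 0.27 (SE 0.03) and the iron chaperone PCBP1 fell by 0.34 (SE 0.05), whereas the ferritin heavy chain FTH1, at -0.09 (adjusted p = 0.112), and HMOX2, at 0.35 (adjusted p = 0.142), did not pass in the authors' deposited table.

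In the lists for other stimuli known to induce metallothioneins, most measured genes did not pass the test, and those that passed went both ways. The genes named are those with the largest absolute score in each list. In the NRF2 and glutathione list 3 of 17 measured genes fell and 1 rose, with a median of -0.12. By the authors' deposited table the glutathione peroxidases GPX1 and GPX4 fell by 0.36 (SE 0.04) and 0.31 (SE 0.06) and PIR fell by 1.93 (SE 0.66) at a mean count of 17.0, while the NRF2 partner MAFG rose by 0.41 (SE 0.14). In the glucocorticoid list of 11 measured genes 1 fell and 1 rose, with a median of -0.03. The mRNA decay factor ZFP36 fell by 0.25 (SE 0.07) and the transcription factor CEBPD rose by 0.41 (SE 0.11), and TSC22D3 (-0.36, adjusted p = 0.113) and DUSP1 (-0.59, adjusted p = 0.437) did not pass, in the authors' deposited table. Of 13 heat shock genes 2 fell and 1 rose, with a median of -0.03. HSPB1 fell by 0.39 (SE 0.05) and HSPA8 by 0.30 (SE 0.04), HSP90AA1 rose by 0.14 (SE 0.05), and HSPE1 stood at -0.15 (adjusted p = 0.0791), in the authors' deposited table.

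**Figure D5:**
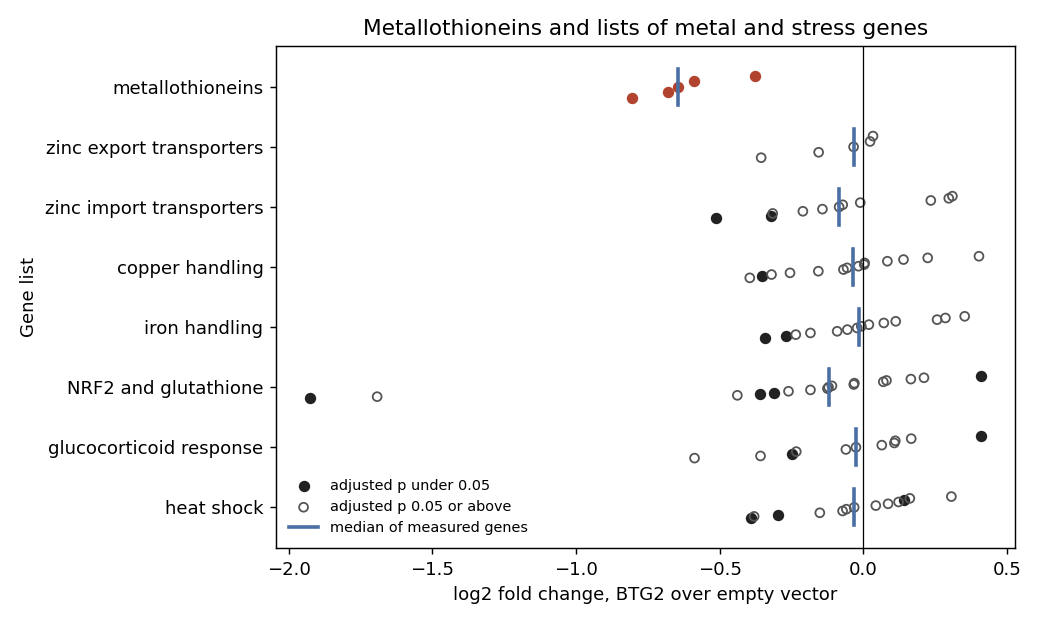
Log2 fold change of BTG2 over empty vector (horizontal axis) for each measured gene of the metallothioneins and 7 lists of metal and stress genes, filled where the authors' adjusted p was under 0.05, with the median of each list as a vertical bar. The metallothionein median is -0.65 and the medians of the 7 lists lie between -0.12 and -0.01.

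Over the 7 lists, 11 of 85 measured genes were lower (12.9%) and 3 higher, with a median log2 fold change of -0.06. The shares were 4.47% lower and 3.64% higher of all genes. Among genes whose mean count reached the median, adjusted over those genes alone, they were 8.98% lower and 6.91% higher. The lists were chosen with earlier results of these data known, so nothing is read from these shares. Of the genes named from these lists, only PIR had a called fold change beyond that of MT1X.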

How the data were processed

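Poly(A) RNA of 4 libraries, 2 per group by the sample titles, was compared by the authors, and the table of that comparison was used. Per the labels' protocols the libraries were directional short-fragment ones read as 150 bp pairs, whereas the series title speaks of long reads; which applies is not known from the sources used here. Minimap2 and hg38 are named, without version or role, per the submitters' processing notes. Per the file headers, the mean column is a signal, the authors' mean normalized count pooled over libraries. As deposited, fold changes and SEs are on the log2 scale, positive where BTG2 was higher. The deposited score equals fold change over SE within 2.72e-07. The deposited p-value is its two-sided normal tail, and adjusted values equal a Benjamini-Hochberg adjustment over the 11597 genes. The program, normalization, annotation and low-count filter of the comparison are also not given in these sources.

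Depth per library is unknown, so precision is given by the deposited SE, and 95% intervals use the normal distribution. The planned count test could not be run on such a table, and the authors' adjusted p under 0.05 was used. Genes were matched to GENCODE release 29 by Ensembl identifier without version (11398 matched), taking the principal coding transcript, and promoters to RefSeq by symbol. Named are all members, BTG2, MTF1, listed genes within 500 kb and up to 4 genes per list with the largest absolute score. Of the neighbours, 1 gene is not reported here. Members and lists were chosen with earlier results of these data known. Calling was tested on simulated data for BTG2 over empty vector, with 11597 genes of which 200 abundant ones were lowered. It recovered 176 of them, with 15 false calls. The noise was drawn from the deposited SEs, so the simulation checks the calling steps and cannot show whether those SEs are right. Alternatives tried were limits of 0.01 and 0.1 on the adjusted p, a log2 fold change of at least 1 in size, abundant genes alone and recentring. Python 3.11.15, numpy 2.4.6, pandas 2.3.3 and scipy 1.17.1 were used.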

Additional observations from a re-analysis of the deposited data

How the results depend on the processing

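All 5 metallothionein genes stayed called and lower at adjusted p limits of 0.01 and 0.1. So they did among genes no lower than the median mean count, and after recentring on the median of those genes. The limits of 0.01 and 0.1 could not change a member's call, since the largest deposited adjusted p of the 5 was 0.000685 (MT1E). All these settings reuse the values by which the family was chosen, so they add no support. Recentring shifted all values by 0.03 on the log2 scale, little beside the members' fold changes of -0.80 to -0.38, so it could hardly change their calls. It left the members between -0.78 and -0.35, with adjusted p up to 0.00212. With a minimum absolute log2 fold change of 1, 0 of the 5 were called, since none fell that far, and 120 of all listed genes and 1 gene of the 7 lists remained past it. At the limit of 0.01, 622 of all genes (940 at 0.05) and 8 genes of the lists (14 at 0.05) were called. After recentring, the split of all calls was 500 higher and 433 lower, beside 422 higher and 518 lower as deposited. No paired analysis was possible because the table holds no values per library. For the same reason leaving out each replicate, other normalizations and a filter on low counts were not run. Which libraries carry the falls is therefore unknown.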
